A study of Rattus norvegicus with 6 samples.

Results

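The BMP ligand Bmp4, its receptors Bmpr1a and Bmpr2, the inhibitory Smads Smad6 and Smad7 and the target genes Id1, Id2 and Id3 were followed in rat flat pluripotent stem (fPS) cells and rat embryonic stem (ES) cells. The members were all probe sets that the platform's annotation table pairs with exactly 1 of these 8 symbols, and 15 of the 31042 probe sets tested met this. RNA from 3 fPS and 3 ES samples was read on Affymetrix gene expression arrays, with 1 array for each. All samples came from the Sprague-Dawley strain, and the protocols are worded alike for both groups. They name a serum-free medium with 10 ng/ml human LIF, 3 μM of the GSK3 inhibitor CHIR99021 and 0.5 μM of the MEK inhibitor PD0325901, and growth on mitomycin C-treated mouse embryonic fibroblasts with 15% serum. The fPS samples are named so by title and cell type, while their description field reads embryonic stem cells. No label tells whether a group's 3 samples are separate cultures or lines. The p-values therefore reflect the spread among these arrays alone, and that spread could be technical.

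Bone morphogenetic proteins (BMPs) are secreted ligands that bind paired type I and type II receptor kinases. The type I receptor phosphorylates Smad1, Smad5 and Smad9, which enter the nucleus with Smad4 and switch on target genes, the Id genes foremost. Id proteins carry a helix-loop-helix domain without a DNA-binding region and hold E proteins away from DNA, and in mouse ES cells BMP4, acting with LIF, blocks neural differentiation through them.

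The Id genes did not move together. Id3 was 4.65-fold dimmer by mean intensity in fPS than in ES cells and Id1 was 2.28-fold brighter, each with no overlap between the groups, while Id2 lay at like values in both. Groups without overlap were found in 22.6% of all genes. Id1 and Id3 were each read by only 1 probe set, so no second one checks the direction. Neither Id1 nor Id3 passed the test over all probe sets, Id3 by a narrow margin. The ligand, the receptors and the inhibitory Smads had smaller or inconsistent differences.

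The start regions of Id1, Id2 and Id3, the genes in which the groups were farthest apart and their near relative, are shown with that of Smad7, whose probe sets disagreed. RefSeq start regions of 300 bases, 250 before the start and 50 after it, were at hand for 7 of the 8 genes. Each is written 5′ to 3′ on the gene's strand, and capitals mark GTCT or its reverse complement AGAC, the core of the Smad-binding element, and the palindrome GGCGCC, a GC-rich motif that BMP Smads bind.
Id1 promoter, chr3:161671314-161671613, + strand, GRCr8: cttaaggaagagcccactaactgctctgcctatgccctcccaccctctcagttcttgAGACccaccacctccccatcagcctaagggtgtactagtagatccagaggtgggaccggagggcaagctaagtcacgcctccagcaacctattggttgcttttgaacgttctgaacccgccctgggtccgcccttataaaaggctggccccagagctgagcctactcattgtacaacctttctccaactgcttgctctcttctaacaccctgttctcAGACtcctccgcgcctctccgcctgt
Id2 promoter, chr6:47470946-47471245, - strand, GRCr8: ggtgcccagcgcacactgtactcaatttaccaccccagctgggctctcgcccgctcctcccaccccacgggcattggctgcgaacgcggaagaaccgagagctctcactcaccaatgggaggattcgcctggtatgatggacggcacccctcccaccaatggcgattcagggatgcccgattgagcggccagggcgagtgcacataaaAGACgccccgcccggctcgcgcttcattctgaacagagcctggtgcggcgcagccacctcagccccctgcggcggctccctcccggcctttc
Id3 promoter, chr5:153656041-153656340, + strand, GRCr8: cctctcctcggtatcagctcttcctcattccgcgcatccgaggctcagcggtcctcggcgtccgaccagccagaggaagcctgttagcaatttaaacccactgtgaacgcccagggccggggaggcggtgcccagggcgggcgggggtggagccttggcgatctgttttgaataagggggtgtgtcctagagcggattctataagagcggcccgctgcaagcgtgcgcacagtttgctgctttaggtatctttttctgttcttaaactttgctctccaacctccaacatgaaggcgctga
Smad7 promoter, chr18:71263258-71263557, + strand, GRCr8: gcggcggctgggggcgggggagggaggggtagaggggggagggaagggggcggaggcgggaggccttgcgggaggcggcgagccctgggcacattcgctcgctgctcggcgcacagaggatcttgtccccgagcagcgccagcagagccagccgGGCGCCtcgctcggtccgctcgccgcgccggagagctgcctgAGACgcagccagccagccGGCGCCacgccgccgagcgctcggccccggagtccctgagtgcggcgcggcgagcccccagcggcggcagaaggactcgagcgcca

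Both strands were searched, and overlapping matches were counted. The Id1 window held 2 GTCT cores, the Id2 window 1 and the Id3 window 0, while 88.8% of the 33469 RefSeq windows of this length held at least 1. GGCGCC was in 0 of the 3 Id windows and stood 2 times in the Smad7 window, against 11% of all windows with a match. The E-box CANNTG, the motif of the E proteins that Id proteins hold away from DNA, was found 1 time each in the Id1 and Id2 windows and 0 times in the Id3 window, against 72.1% of all windows. TATAA was found in the Id1 and Id3 windows, against 26.2% of all, and CCAAT stood 3 times in the Id2 window and 1 time in the Id1 window, against 37.5% of all. These matches describe letters in the windows and say nothing of binding.

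The median intensity of the arrays ran from 36.2 to 45.3. Without the lowest and highest 2% of probe sets, the mean intensity was 177, 165 and 145 on the fPS arrays and 167, 160 and 199 on the ES arrays. It was lowest on fPS replicate 3 and highest on ES replicate 3, and the fit did not adjust for it. Of 13 pluripotent cell markers listed, 9 were measured, and all 9 lay above the array's median on each of the 6 arrays. Of these, Tet1, an enzyme that oxidises methylated cytosine, fell in fPS cells (log2 change -1.77, adjusted p = 0.0489), and the other 8 did not pass. Among the latter, Sox2 lay lower (log2 change -0.97, adjusted p = 0.181) and Klf5 higher (0.32, adjusted p = 0.506) in fPS cells, each without overlap. The mean log2 value of the 9 was 10.7, 10.5 and 10.2 on the fPS arrays and 10.7, 10.6 and 11.1 on the ES arrays. The Tet1 call was lost in 11 of 19 alternative settings, among them each array left out in turn other than fPS replicate 1, with values from -2.05 to -1.47. All 21 listed markers of fibroblasts, the feeder cell type, were measured. Their mean log2 value was 6.26, 6.19 and 6.78 on the fPS arrays and 5.52, 5.93 and 6.75 on the ES arrays, and their summed intensity ran from 3316 to 3954 in fPS and from 2585 to 3770 in ES cells. None of the 21 passed the test, and no intensity was at 0. In bulk samples fewer cells of a type and less RNA per cell cannot be told apart.

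Of the 8 genes, each taken by its brightest probe set, 0 passed the limma test over all probe sets, against 0.858% of 14217 genes, and 0 of the 15 probe sets passed, against 0.693% of all. At an unadjusted limma p under 0.05 there were 2 of the 8, Id1 and Id3, against 17.5% of all genes. The groups did not overlap in 2 of the 8 genes, against 22.6% of all genes, and in 4 of the 15 probe sets. Of those, 3 lay above ES cells, against 10.1% of all probe sets, and 1 below, against 9.88% of all. These shares lie near the background, so the number of genes that differ is no result about the set. The median log2 change of the 8 was -0.28, and that of all genes -4.6e-05. Over all 15 probe sets the sign turned, with a median of 0.076 against 0.014 for all probe sets, and with the mean over the probe sets of each gene the median of the 8 was 0.052. Log2 changes are differences of mean log2(intensity + 16), fPS minus ES, a scale on which the change of a dim probe set comes out too small.

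**Figure D1:**
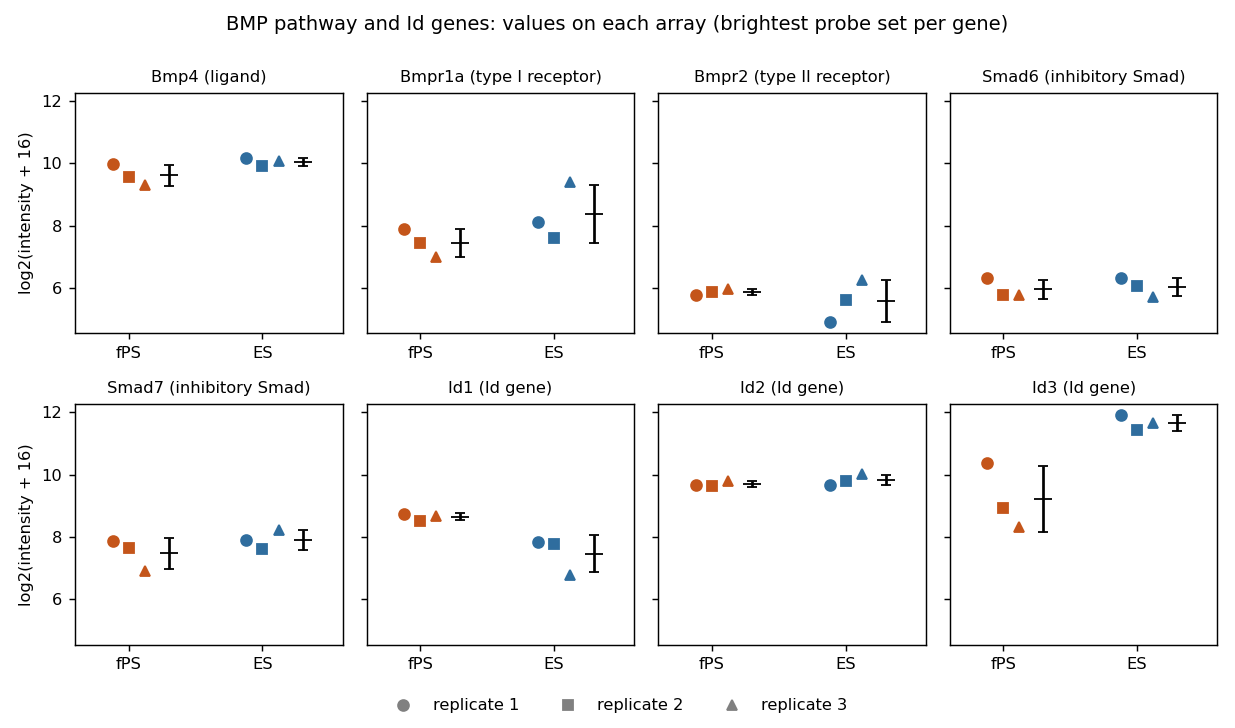
Log2(intensity + 16) of the brightest probe set of each of the 8 genes on the 3 fPS and the 3 ES arrays. Symbols mark the replicate number and black bars the mean ± SD (n = 3). Id3 lies lower and Id1 higher on all fPS arrays, and the other 6 genes overlap; heights should not be compared between genes.

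Bmp4, the ligand, had intensities of 998, 747 and 620 on the fPS arrays and 1140, 946 and 1059 on the ES arrays. The groups overlapped, since fPS replicate 1 lay above ES replicate 2. The mean was 788 ± 192 in fPS and 1049 ± 97.9 in ES cells (SD, n = 3 each). The log2 change of -0.43 (95% confidence interval -0.96 to 0.11) did not pass (adjusted p = 0.442) and was -0.27 without fPS replicate 3. Its probe set was at percentile 93.8 of all probe sets by mean level.

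Bmpr1a, the type I receptor also called ALK3, had 224, 160 and 111 on the fPS arrays and 262, 181 and 663 on the ES arrays. ES replicate 3 stood far above the other arrays, while ES replicate 2 lay inside the fPS range and ES replicate 1 above it. The log2 change of -0.93 (confidence interval -1.94 to 0.08) did not pass (adjusted p = 0.364), and it was -0.42 without ES replicate 3. That array also had the highest fibroblast marker level of the ES group, and with this level as a covariate the change was -1.17 (adjusted p = 0.261). Without replicate 3 of both groups it was -0.19 (adjusted p = 0.809).

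Bmpr2, the type II receptor, was read by 2 dim probe sets. The brighter had 39.4, 43.0 and 46.6 on the fPS arrays and 14.0, 33.3 and 60.6 on the ES arrays, so the fPS values lay inside the ES range. Its log2 change of 0.29 (confidence interval -0.46 to 1.03) did not pass, and without ES replicate 1 it was -0.060. The other probe set lay at percentile 20.8 by mean level, with a log2 change of 0.38 (confidence interval -0.28 to 1.05).

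Smad6, an inhibitory Smad that acts chiefly on the BMP branch, had 4 probe sets, all near or below the middle of the array's range (percentiles 31.8 to 55.0). The brightest had 64.2, 39.1 and 38.9 on the fPS arrays and 64.1, 51.4 and 37.0 on the ES arrays. These ranges coincide, and the log2 change was -0.081 (confidence interval -0.65 to 0.49). The dimmest had 17.5, 24.8 and 27.6 in fPS and 6.24, 14.2 and 14.8 in ES cells, which do not overlap (log2 change 0.51, adjusted p = 0.33). Of the 4 probe sets, 2 had a positive and 2 a negative change, from -0.20 to 0.51, and none passed.

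Smad7, an inhibitory Smad that blocks both BMP and TGF-β receptors, was read differently by its 3 probe sets. The brightest had 216, 186 and 105 on the fPS arrays and 223, 179 and 284 on the ES arrays, overlapping, with a log2 change of -0.43 (confidence interval -1.10 to 0.24) that was -0.15 without fPS replicate 3. The next had 166, 186 and 59.6 in fPS and 57.8, 55.5 and 27.1 in ES cells. There the fPS arrays were all the higher ones, fPS replicate 3 by little, and the log2 change of 1.20 (confidence interval 0.30 to 2.10) did not pass (adjusted p = 0.193). The last had 67.6, 64.3 and 19.5 in fPS and 35.4, 33.8 and 55.3 in ES cells, again overlapping (log2 change 0.13). On each of the 3 probe sets fPS replicate 3 was the lowest fPS array. No direction can be given for Smad7 from probe sets that differ in sign.

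**Figure D2:**
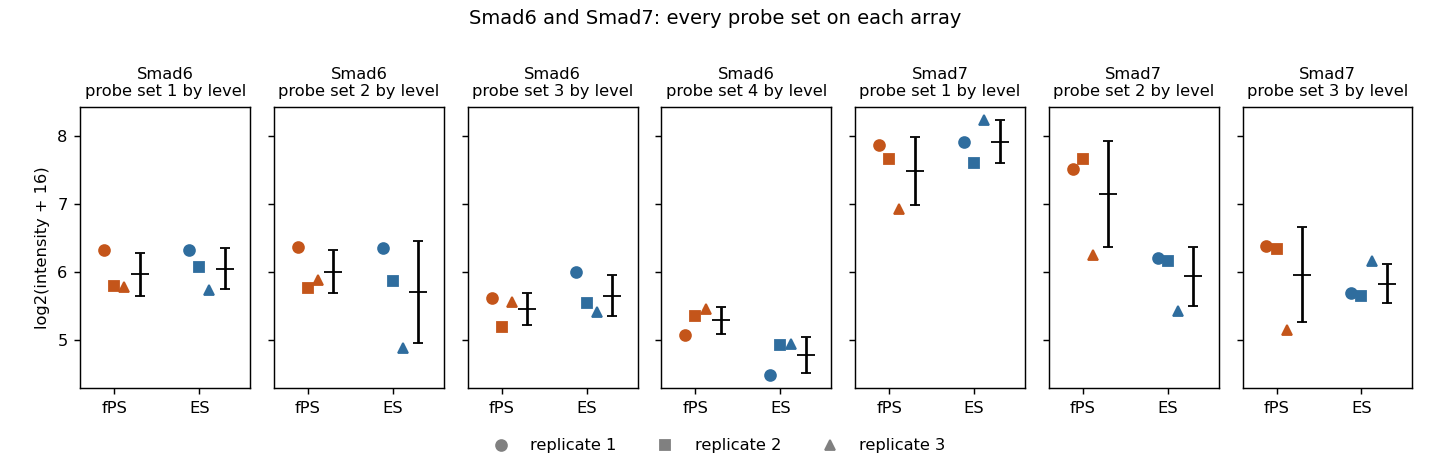
Log2(intensity + 16) of every probe set of Smad6 (4) and Smad7 (3), ordered by mean level, on the 3 fPS and the 3 ES arrays, with the mean ± SD. The groups are apart in the dimmest Smad6 probe set and in the middle one of Smad7, and overlap in the other 5.

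Id3, a target of BMP Smads in many cell types, had intensities of 1320, 477 and 302 on the fPS arrays and 3832, 2731 and 3187 on the ES arrays. The lowest ES array was 2.07-fold above the highest fPS array. The fPS arrays differed 4.37-fold among themselves and the ES arrays 1.40-fold. The mean was 700 ± 544 in fPS and 3250 ± 553 in ES cells (SD, n = 3 each). The log2 change was -2.45 (SE 0.465, confidence interval -3.50 to -1.39), the 8th lowest of the 14217 genes, and missed the threshold (adjusted p = 0.0552). Its residual SD was at percentile 98.6 of all probe sets. Without fPS replicate 1, the array nearest to ES cells, the change was -3.03 and passed (adjusted p = 0.0265), and without any of the other arrays in turn it did not. It also passed when dim probe sets were left out before adjustment (adjusted p = 0.00977 without the dimmest 30%).

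Id1, the most used transcriptional readout of BMP signalling, had 416, 354 and 391 on the fPS arrays and 211, 205 and 93.4 on the ES arrays. Here the fPS arrays lay close together and ES replicate 3 stood below the other ES arrays. The mean was 387 ± 31.2 in fPS and 170 ± 66.3 in ES cells (SD, n = 3 each), and the lowest fPS array was 1.68-fold above the highest ES array. The log2 change of 1.19 (SE 0.302, confidence interval 0.50 to 1.88) did not pass (adjusted p = 0.109). Without ES replicate 3 it was 0.84.

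Id2 had 795, 772 and 877 on the fPS arrays and 806, 880 and 1015 on the ES arrays by its brighter probe set. The groups overlapped, with a log2 change of -0.14 (confidence interval -0.59 to 0.32). The residual SD of this probe set was at percentile 7.6 of all, so its interval is among the tighter ones. The other probe set had 263, 149 and 210 in fPS and 208, 161 and 208 in ES cells, with a log2 change of 0.076 (confidence interval -0.49 to 0.64).

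Because Id1 was higher and Id3 lower on every fPS array, their difference within an array also keeps the groups apart, and it is given as a description with no test. The log2 value of Id3 minus that of Id1 was 1.63, 0.42 and -0.36 on the fPS arrays and 4.08, 3.63 and 4.87 on the ES arrays. The means differed by -3.63. The level of each probe set depends on its probes, so only the difference between groups is read. For Id3 minus Id2 the change was -2.31 and for Id1 minus Id2 it was 1.33.

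**Figure D3:**
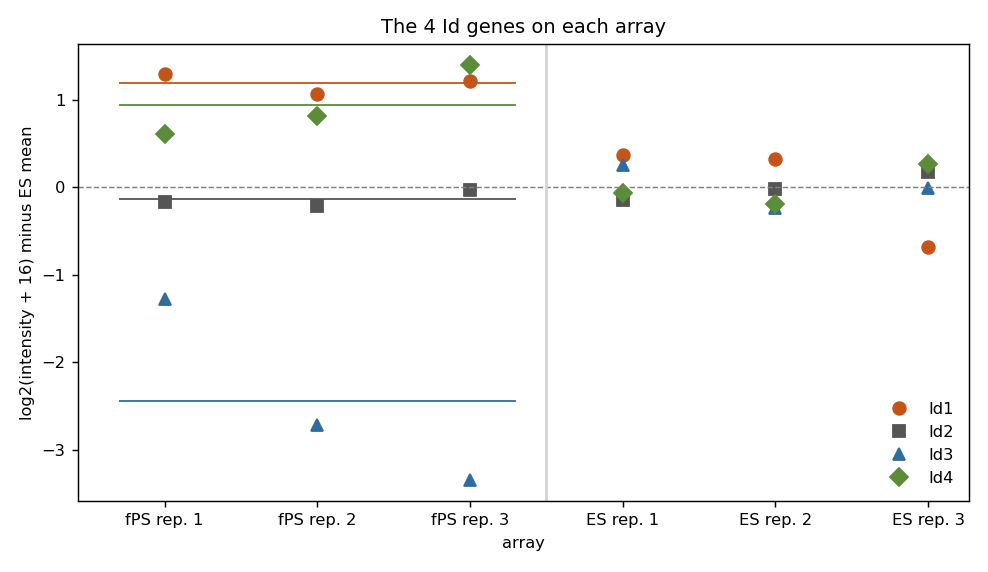
Log2(intensity + 16) of Id1, Id2, Id3 and Id4, each by its brightest probe set and set to a mean of 0 over the 3 ES arrays, on each array. Coloured lines give the fPS mean (1.19 for Id1, -0.14 for Id2, -2.45 for Id3, 0.94 for Id4); Id3 differs most among the fPS arrays and Id1 among the ES arrays.

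The fibroblast marker level differed between arrays of both groups. With that level as a covariate the log2 change of Id3 was -2.25 (adjusted p = 0.112) and that of Id1 was 1.43 (adjusted p = 0.0779). Without the array of highest marker level in each group, replicate 3 of both, they were -2.00 and 0.83 (adjusted p = 0.208 and 0.204). Whether mouse feeder RNA binds these rat probe sets was not tested.

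**Figure D4:**
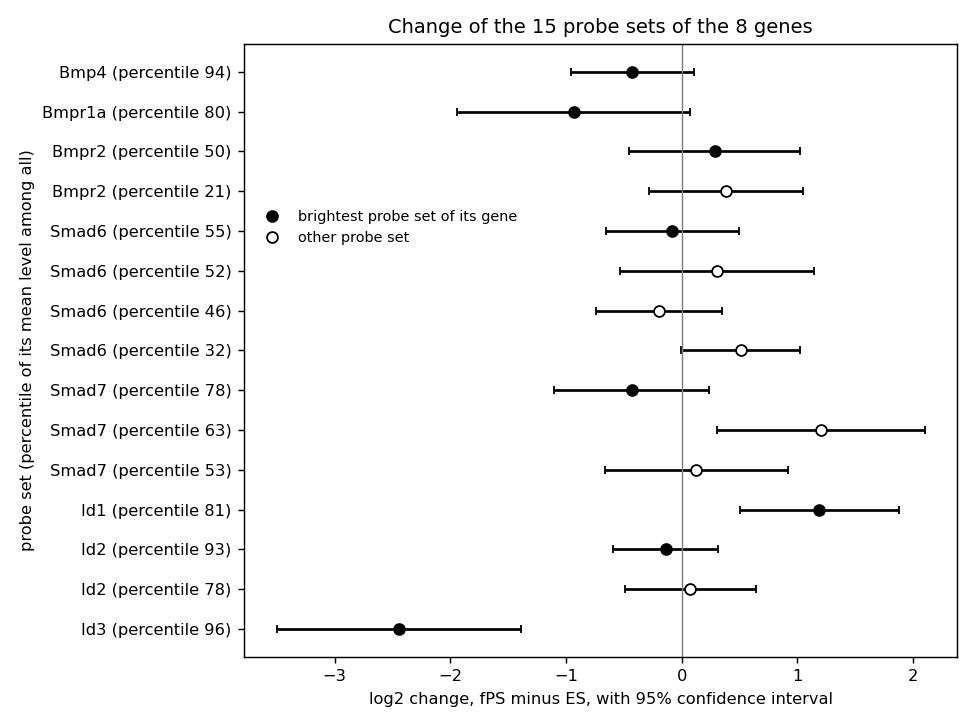
Log2 change (fPS minus ES) of the 15 probe sets with its 95% confidence interval from the limma fit (3 arrays per group). Filled points are the brightest probe set of a gene, and the percentile is that of the probe set's mean level among 31042. Only the intervals of Id3, Id1 and the middle probe set of Smad7 leave out 0.

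The genes nearest to a member across the 6 arrays were taken by the mean absolute difference of log2 values, each gene centred on its own mean, among 6431 genes with a mean log2 value of at least 7. Like changes and a like order of arrays follow from that choice and are no separate result. Nearest to Id3 were Epha4, an Eph receptor tyrosine kinase, Cldn5, a tight junction protein, and Slc7a3, a carrier of cationic amino acids, with mean differences of 0.13, 0.18 and 0.25. Epha4 had 583, 242 and 134 on the fPS arrays and 1567, 1151 and 1744 on the ES arrays, the same order of fPS arrays as Id3. Its log2 change was -2.38, that of Cldn5 -2.28 and that of Slc7a3 -2.15 (adjusted p = 0.0552, 0.0507 and 0.0602), and the 4 probe sets of Epha4 ran from -2.56 to -0.40. Nearest to Id1 were Sts, the steroid sulfatase, Cystm1, a small membrane protein, and Apoc1, an apolipoprotein, at 0.11, 0.13 and 0.16, all lowest on ES replicate 3. Nearest to Bmpr1a were Emb, a cell surface glycoprotein, Lrrn4, a leucine-rich repeat protein, and Usp10, a deubiquitinase, at 0.13, 0.15 and 0.15, each with its highest value on ES replicate 3.

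The rest of the pathway was read through 7 lists of other genes, of which 65 of 85 were measured. Of these, 1 was higher, against 0.570% of all genes, 0 were lower, against 0.288% of all genes, and 64 did not pass. At an unadjusted limma p under 0.05 there were 16 of the 65, with 8 in each direction. The share of all genes at that p was 17.5%, the background for the count of each list as well. As the lists were chosen with earlier results of these data known, the counts describe them and are no test. The median log2 change was 0.066. The gene that rose was Dusp9, an ERK phosphatase that BMP4 induces through Smads in mouse ES cells. It had 792, 779 and 498 on the fPS arrays and 50.9, 63.4 and 101 on the ES arrays, far apart. Its log2 change was 3.02 (SE 0.286, adjusted p = 0.0238). The call was lost without fPS replicate 2, ES replicate 1 or ES replicate 3 (adjusted p = 0.17, 0.132 and 0.0583), with the fibroblast covariate, a pseudocount of 1 or no moderation of variances (adjusted p = 0.0679, 0.132 and 0.221), and without replicate 3 of both groups (adjusted p = 0.145), while the change stayed between 2.84 and 3.25 whichever array was left out.

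Among the other targets and feedback genes, Dusp9 was the 1 of 15 measured that passed, and the list's median change was 0.095. At an unadjusted limma p under 0.05 there were 7 of the 15, with 4 higher (Dusp9, Id4, Dlx5 and Dlx3) and 3 lower (Msx2, Msx1 and Skil), against 17.5% of all genes. The list was chosen with earlier results of these data known, so this count is no result about the targets. Dlx5 and Dlx3, homeobox genes named after their values were seen, had log2 changes of 0.80 and 0.67 without overlap between the groups, and did not pass (adjusted p = 0.155 and 0.227). Msx2 and Msx1, homeobox genes that BMPs induce in many embryonic tissues, did not pass, at log2 changes of -1.38 (adjusted p = 0.0562) and -1.23 (adjusted p = 0.172). Msx2 had 28.8, 22.7 and 25.1 on the fPS arrays and 108, 58.1 and 119 on the ES arrays, with no overlap, and its 3 probe sets ran from -1.38 to -0.25. Skil, a corepressor of Smads, had 598, 608 and 690 in fPS and 966, 753 and 1304 in ES cells (log2 change -0.63, adjusted p = 0.265). Tob1, an antiproliferative protein that binds BMP Smads, had a change of 0.47, or 0.25 without ES replicate 1.

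Id4, the remaining member of the Id family, named here after its values were seen, had 85.4, 100 and 159 on the fPS arrays and 47.2, 42.0 and 64 on the ES arrays. By this probe set, its brightest, the fPS arrays were all the higher ones (log2 change 0.94, adjusted p = 0.14). Of its 4 probe sets, the brighter ones had changes of 0.94, 0.35 and 0.35. The dimmest, at percentile 32.2 by mean level, had -0.99. It read 4.14, 3.26 and 17.3 in fPS and 26.9, 37.9 and 27.6 in ES cells, without overlap. As the probe sets disagreed, Id4 has no settled direction.

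Of the partners of Id proteins and other basic helix-loop-helix factors, 0 of 8 measured passed, with 1 at an unadjusted limma p under 0.05 and a median of -0.13. That gene was Tcf4, an E protein, with 196, 143 and 106 on the fPS arrays and 401, 356 and 297 on the ES arrays. The groups did not overlap, and the log2 change of -1.19 (SE 0.255) did not pass (adjusted p = 0.0764). Its second probe set had a change of -0.78. The E proteins Tcf3 and Tcf12 had changes of -0.43 and -0.085, and Hes1, a Notch target, of -0.20, and all 3 changed sign without ES replicate 3. The other probe set of Tcf12 was at 0.24, so Tcf12 has no settled direction.

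Of 8 other ligands, 0 passed and 1 had an unadjusted limma p under 0.05, with 6 positive signs and a median change of 0.42. Only Bmp7 lay above the middle of the array's range. It had 79.4, 55.7 and 43.5 on the fPS arrays and 33.0, 40.6 and 37.7 on the ES arrays (log2 change 0.48, adjusted p = 0.373), and without fPS replicate 1 the change was 0.30. Bmp6 and Gdf6 had changes of 0.71 and 0.64 (adjusted p = 0.325 and 0.3), and Gdf6 was at 0.38 without fPS replicate 1. The 4 probe sets of Bmp6 ran from 0.065 to 0.71. Of 11 extracellular antagonists, which keep ligands from their receptors, 0 passed and 2 had an unadjusted limma p under 0.05, with a median of 0.23. Fstl3, a follistatin-like protein, had 489, 597 and 128 in fPS and 174, 125 and 89.7 in ES cells (log2 change 1.32, adjusted p = 0.258), so fPS replicate 3 lay inside the ES range. Fstl1, a secreted glycoprotein of the same family, had 38.8, 58.7 and 45.9 in fPS and 165, 66.9 and 67.1 in ES cells (log2 change -0.77, adjusted p = 0.309), and the change was -0.39 without ES replicate 1. Its second probe set had 24.1, 19.7 and 26.4 in fPS and 66.9, 57.1 and 66.1 in ES cells (log2 change -1.01, adjusted p = 0.0578). The last overlapped, with a change of -0.61 (adjusted p = 0.437). Twsg1, which binds BMPs together with chordin, had a change of 0.15, and noggin and chordin lay at percentiles 13.4 and 12 by mean level.

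Of 8 other receptors and co-receptors, 0 passed and 1 had an unadjusted limma p under 0.05, with a median of -0.14. That 1 was Acvr1, the type I receptor also called ALK2, named after its values were seen. It had 42.7, 33.2 and 33.7 on the fPS arrays and 68.8, 56.7 and 58.2 on the ES arrays (log2 change -0.56, adjusted p = 0.227), with 1 of its 3 probe sets of the opposite sign. Acvr2b, a type II receptor, had a change of -0.44, Rgma, a BMP co-receptor, of -0.77 and Eng, the co-receptor endoglin, of 0.64. Rgma was at -0.31 without fPS replicate 3, and Eng at 0.20 without ES replicate 1. Of the 4 Smads that carry the signal, 0 passed and 0 had an unadjusted limma p under 0.05. Smad1 had 1168, 1256 and 966 in fPS and 640, 921 and 1024 in ES cells, overlapping, with a log2 change of 0.40 (0.21 without ES replicate 1), and its other probe set had -0.16. Smad5, named after its values were seen, Smad9 and Smad4 had changes of -0.12, -0.31 and -0.10. The sign was opposite in 3 of the 4 probe sets of Smad5 and 1 of the 2 of Smad9, and Smad9 ran from -0.59 to -0.056 with single arrays left out. In the TGF-β and activin branch, 0 of 11 measured genes passed, with a median of -0.078. An unadjusted limma p under 0.05 was found for 4 of them, Gdf11, Tgfbr3, Smad3 and Acvr1c. Gdf11 and Smad3 were named after their values were seen. They had changes of -0.61 and 0.62 without overlap between the groups (adjusted p = 0.215 and 0.303). Acvr1c, a type I receptor of Nodal, Tgfbr3, a co-receptor, Tgfbr1, a type I receptor, and Smad2, a signal carrier, had changes of -0.95, 0.73, -0.37 and -0.078. The other probe set of Tgfbr3 was at -0.55 and that of Tgfbr1 at 0.20, so neither has a settled direction, and Acvr1c was at -0.48 without ES replicate 3.

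**Figure D5:**
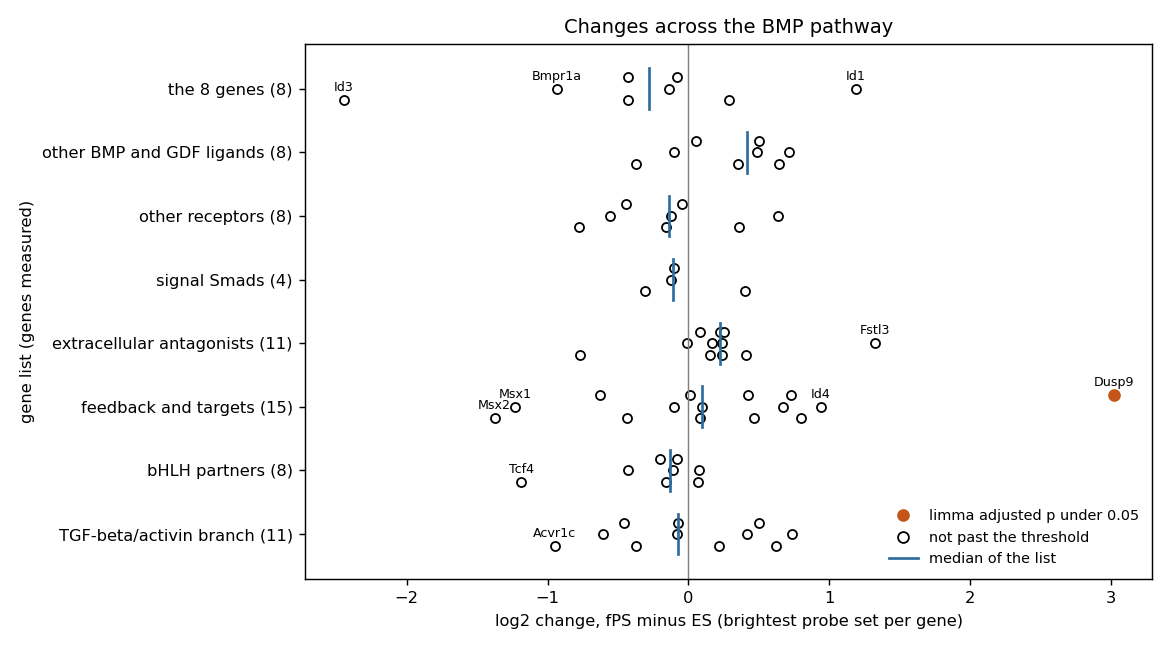
Log2 change (fPS minus ES) of the 8 genes and of 7 lists of other pathway genes, 1 point per gene by its brightest probe set, with the list's median as a blue line. Dusp9, at 3.02, is the only gene past the threshold in this fit, and genes beyond 0.9 in either direction are named.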

How the data were processed

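Affymetrix arrays of 3 fPS and 3 ES samples were analysed, grouped by sample title. The authors deposited a linear intensity for each probe set on each array. How these were summarised, background-corrected and scaled is not given in the sources used here. Of 31099 probe sets, 57 controls were left out and 31042 tested on log2(intensity + 16), with no further normalization or filter, using limma 3.58.1 in R 4.3.3 (lmFit, eBayes) and Benjamini-Hochberg adjustment over all probe sets at a threshold of 0.05. For a gene, the probe set of highest mean log2 value was taken. Symbols came from the platform's annotation (20826 probe sets with 1 symbol, 436 with several, 9780 with none). The members and lists were chosen with earlier results of these data known. From each list the text names genes past the threshold, the 2 others with the largest change and the 2 brightest. Further genes (Id4, Acvr1, Smad5, Dlx3, Dlx5, Gdf11, Smad3 and the markers Sox2 and Klf5) were named after their values were seen. Noggin and chordin were also named outside that rule, for their level alone. The genes alike to a member are the 3 nearest to each of the 3 members with the largest change. Other normalizations, pseudocounts, filters, variance settings, a replicate block, a fibroblast covariate and left-out arrays were tried. The fit was tested on simulated data. The number of arrays limits the precision. Plots were made in Python 3.11.15 (matplotlib 3.10.9).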

Additional observations from a re-analysis of the deposited data

How the results depend on the processing

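The Id3 change stayed negative and the Id1 change positive in all 18 of the 19 alternatives that held them. In most of these the sign could not turn. Dim filters, variance settings, the replicate block and the mean over probe sets left both changes as they were. Where groups do not overlap, leaving out arrays or changing the pseudocount keeps the sign. Only quantile normalization, centred arrays and the fibroblast covariate could have turned it. Id3 ran from -3.03 to -1.99, with adjusted p from 0.00732 to 0.313, and passed in 6: centred arrays (0.0289), without the dimmest 30% or 50% of probe sets (0.00977 and 0.00732), trend and robust settings (0.00901), the mean over probe sets (0.0277) and without fPS replicate 1 (0.0265). Id3 has 1 probe set, so the mean over probe sets left its values as they were, and the adjustment there ran over 14217 genes. Id1 ran from 0.83 to 1.43 and passed in 1, without the dimmest 50% (adjusted p = 0.0373). Leaving out probe sets ending in x, s or a dropped both genes. After quantile normalization 0 of the 8 genes passed. By the brightest probe sets the log2 change was then -2.31 for Id3, 1.26 for Id1 and -0.00092 for Id2. It was -0.30 for Bmp4, -0.83 for Bmpr1a, 0.28 for Bmpr2, -0.15 for Smad6 and -0.34 for Smad7. The count of the 8 genes past the threshold was 1 with centred arrays, without the dimmest 30%, with trend and robust settings and with the mean over probe sets, 2 without the dimmest 50%, and 0 to 1 with single arrays left out.

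Over all genes 122 passed, 81 of them higher. The count was 203 with centred arrays (96 higher), 0 with a pseudocount of 1, 26 with 64, 416 and 506 without the dimmest 30% and 50%, 358 with trend and robust settings, 0 without moderation, 64 with the replicate block, 300 with the mean over probe sets, 0 with the fibroblast covariate, 0 without replicate 3 of both groups and 0 to 93 with single arrays left out (leaving out fPS replicate 2 or ES replicate 1 gave 0, fPS replicate 3 gave 3, ES replicate 3 gave 1 and ES replicate 2 gave 19). Of probe sets 215 passed, 124 higher. That count was 339 after quantile normalization, 376 with centred arrays (152 higher), 0 and 41 with pseudocounts of 1 and 64, 759 and 899 without the dimmest 30% and 50%, 619 with trend and robust settings, 1 without moderation, 107 with the replicate block, 0 with the fibroblast covariate, 0 without replicate 3 of both groups and 0 to 162 with single arrays left out. Where a count was 0, limma still gave 1615 to 2637 genes at an unadjusted p under 0.05. The 1 other pathway gene became 2 after quantile normalization and with the mean over probe sets, 3 with centred arrays, without the dimmest 30% or 50% and with trend and robust settings, 0 with a pseudocount of 1, without moderation, with the fibroblast covariate and without replicate 3 of both groups, and 0 to 1 with single arrays left out. The samples share only a replicate number: deviations from the group means correlated at 0.15, 0.020 and 0.075 between same-numbered samples. With the replicate block 0 of the 8 genes passed (Id3 adjusted p = 0.0558).

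Some changes that had not passed turned sign. With the fibroblast covariate the brighter Bmpr2 probe set was at -0.016 and the brightest of Smad6 at 0.076. With the mean over probe sets Smad6 was at 0.13, Smad7 at 0.30, Tcf12 at 0.079 and Smad5 at 0.020. After quantile normalization Smad4, Tcf12 and Smad2 were at 0.010, 0.036 and 0.035. Without replicate 3 of both groups the second probe set of Smad6 was at -0.047, the brightest of Smad7 at 0.0073, Smad4 at 0.23, Tcf3 at 0.14, Tcf12 at 0.18, Smad2 at 0.27 and Smad5 at 0.19. With single arrays left out the ranges were -0.060 to 0.62 for Bmpr2, -0.10 to 0.28 for the dimmer Id2 probe set, -0.26 to 0.060 and -0.11 to 0.63 for the brightest and second Smad6 probe sets, -0.087 to 0.53 for the dimmest of Smad7, -0.24 to 0.10 for Smad4, -0.92 to 0.17 for Tcf3, -0.41 to 0.033 for Hes1, -0.24 to 0.20 for Tcf12, -0.40 to 0.15 for Smad2 and -0.25 to 0.13 for Smad5. The cause was not tested. Slides and scans were not analysed here.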
